A study of Sus scrofa with 18 samples.

Results

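The 7 metabotropic glutamate receptor genes described here are GRM2, GRM3, GRM4, GRM5, GRM6, GRM7 and GRM8, chosen by gene name from a count table of 31908 pig genes. All 7 were in the table, had a count in each of the 18 libraries, and were among the 16325 genes with enough counts to be tested. The libraries were made from whole brains of untreated fetuses of Landrace × Large White gilts bred to a commercial sire line, collected on gestation day (GD) 45, 60 or 90. There were 3 females and 3 males at each day, which gave 6 groups of 3 libraries, each library from 1 fetus. Fetuses are named by sex, day and the replicate number of their label. At each day the 3 females and the 3 males came in pairs of the same litter size, but the labels do not name the litters. No group carried an altered gene or received an agent, and the whole brain was used, so a level is an average over all brain regions and cell types.

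Glutamate is the main excitatory transmitter of the brain. Beside the ion channels that it opens directly, it acts on metabotropic receptors, which span the membrane and signal through G proteins. Group I receptors, represented here by GRM5, couple to Gq, activate phospholipase C, and sit mostly on the postsynaptic side, where Homer and Shank scaffolds hold them. Group II (GRM2 and GRM3) and group III (GRM4, GRM6, GRM7 and GRM8) couple to Gi/o, lower cyclic AMP, and many of them damp transmitter release from the presynaptic terminal. GRM3 is also known from astrocytes, and GRM6 is known as the receptor of retinal ON bipolar cells rather than of the brain.

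Levels are given as CPM, the counts of a gene scaled by the library's total over all genes, and between genes as FPKM, which also divides by exonic length. Library totals ranged from 15118843 to 19729783 counts, so 3 counts, the limit that a count of 0 allows, stood for 0.152 to 0.198 CPM. Neuronal markers (5 genes) were abundant at every day, with a summed median of 6787 CPM at GD45, 7754 at GD60 and 7669 at GD90. STMN2 and TUBB3 made up most of that sum, while SYT1 (a median of 255, 344 and 744 CPM), SNAP25 (242, 262 and 568 CPM) and RBFOX3 (45.4, 67.1 and 113 CPM) were higher in every GD90 library than in every GD45 library. The part of these in the receptor levels was not tested. Astrocyte markers summed to a median of 353, 558 and 1783 CPM and oligodendrocyte markers to 35.8, 49.3 and 2155 CPM over the same days. In such bulk libraries, fewer cells of a type and less RNA per cell cannot be told apart. The libraries also differed in where reads fell along transcripts. Over 6279 genes, the median share of a gene's exon counts on its 3′-most (last) exon was between 27.2% and 42.4% in 17 libraries and 51.9% in male GD45 replicate 17, which stood apart. With the sexes pooled, this share had a median of 37.2% at GD45, 37.2% at GD60 and 30.1% at GD90. At GD90 it was 31.1% to 40.7% in the females and 27.2% to 29.1% in the males, so the sexes did not overlap in it. The female GD90 libraries overlapped those of GD60 (28.8% to 41.9%), while the male GD90 libraries lay below all earlier male libraries. Each result that moves with this share is given with it below.

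Alternative exons of 3 of these genes could be followed, and the sequences of 2 are shown because these exons lie in the part of the message that codes for the receptor's intracellular tail. Both were read from the Sscrofa11.1 genome of RefSeq, 5′ to 3′ on the gene's strand, with the exon in capitals and 10 bases of intron on each side in lower case. The 96-base exon of GRM5 lies at chr9:21934296-21934391 on the minus strand, is listed at these bases in 5 RefSeq transcripts, and is coding over its whole length with no stop codon in frame. The 92-base exon of GRM7 lies at chr13:64151573-64151664 on the plus strand, is listed in 4 RefSeq transcripts, and has its first 71 bases coding, ending in an in-frame TAG, with 21 bases after the stop.
GRM5 96-base exon: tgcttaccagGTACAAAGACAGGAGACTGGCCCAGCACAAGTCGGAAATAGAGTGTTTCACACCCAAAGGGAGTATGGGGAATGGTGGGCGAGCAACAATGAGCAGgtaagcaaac
GRM7 92-base exon: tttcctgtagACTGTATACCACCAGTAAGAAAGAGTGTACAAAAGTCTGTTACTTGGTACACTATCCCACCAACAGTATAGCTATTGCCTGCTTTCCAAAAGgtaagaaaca
Both exons are preceded by AG and followed by GT, the letters of the usual splice sites. Their counts are given below with those of the other exons.

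Per length, the 7 genes covered a wide range. The exonic length includes listed exons with few exon-level counts, such as a 5755-base exon of GRM4 (108 counts) and a 2809-base exon of GRM8 (2 counts). The part of such exons in the order of the genes was not tested. GRM3 stood highest at each day, with a median of 26.7 FPKM at GD45, 29.8 at GD60 and 45.4 at GD90, at or above the level of 86.5%, 87.9% and 92.6% of the tested genes. GRM5 moved from a median of 4.79 to 9.84 and then 25.6 FPKM, from the 50.2 to the 86.1 percentile of the tested genes. GRM7 went from 4.73 to 7.70 and 9.24 FPKM, and GRM2 from 4.38 to 5.04 and 2.89 FPKM. GRM4 (2.38, 2.77 and 4.49 FPKM) stood below GRM2 at GD45 and GD60 and above it at GD90, and GRM8 (2.02, 1.85 and 2.41 FPKM) stood below both at each day. GRM6 was the lowest, with 0.158, 0.199 and 0.0698 FPKM. At GD45 the ranges of GRM2, GRM5 and GRM7 overlapped, so their order there lies within the spread of the 6 libraries. At GD90 GRM7 (7.35 to 10.8 FPKM) lay above GRM4 (3.96 to 5.38 FPKM), and GRM4 lay above GRM2 (2.54 to 3.93 FPKM) in all 6 libraries of each.

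**Figure D1:**
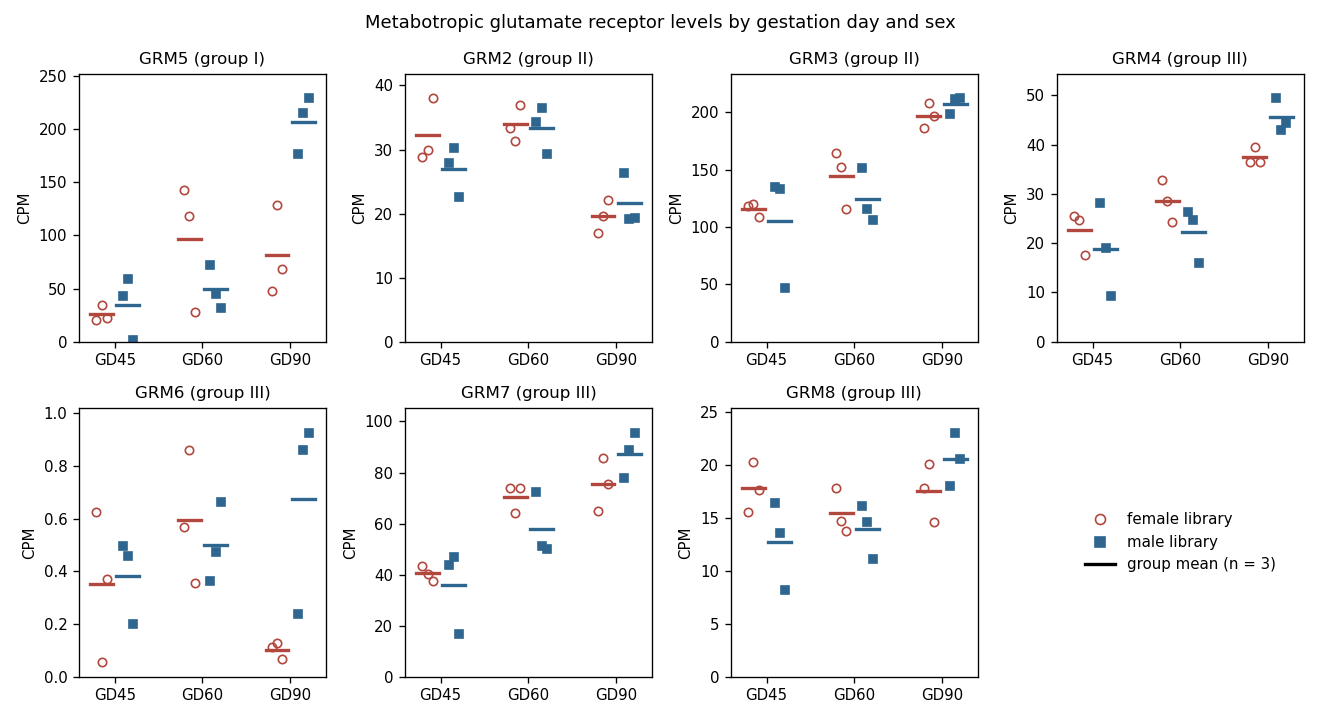
Each panel plots the CPM of 1 gene (vertical axis from 0, scaled per gene) at GD45, GD60 and GD90, with open circles for female libraries, filled squares for male libraries and a bar at the mean of each group of 3. GRM3, GRM4 and GRM7 are highest at GD90 and GRM2 is lowest there, while the male GRM5 values at GD90 (177 to 229 CPM) lie above all other libraries.

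Group II receptors held the largest share of the summed FPKM of the 7 genes in each library, and with the sexes pooled their median share was lower at later days. This share had a median of 68.2% at GD45 (range 64.0% to 76.4%, n = 6), 62.0% at GD60 (52.1% to 66.2%) and 53.8% at GD90 (46.9% to 67.1%). The share of group I, which is GRM5 alone, was 10.6% at GD45 (1.64% to 18.7%), 17.1% at GD60 (9.49% to 29.9%) and 28.03% at GD90 (12.2% to 35.8%). Group III held 20.5%, 20.9% and 18.2% at the median, and its 4 genes together never left the range of 17.2% to 26.3%. The days overlapped in the shares of all 3 groups, and the sexes took different courses. In females the median share of group II was 69.7%, 54.4% and 64.6% and that of group I 8.96%, 28.004% and 15.8%. In males group II had 66.2%, 63.4% and 48.2% and group I 14.04%, 15.4% and 34.6%. At GD90 the female and male ranges of the group I share did not overlap, at 12.2% to 24.7% and 31.4% to 35.8%. The last-exon share did not overlap there either, at 31.1% to 40.7% in females and 27.2% to 29.1% in males. Its part in the shares of the receptor groups was not tested. On CPM, which gives more weight to long genes, group II had a median share of 56.9%, 51.0% and 43.2% and group III of 30.9%, 31.2% and 27.8%. The exonic lengths behind FPKM include listed exons with few counts, and their part in these shares was not tested.

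**Figure D2:**
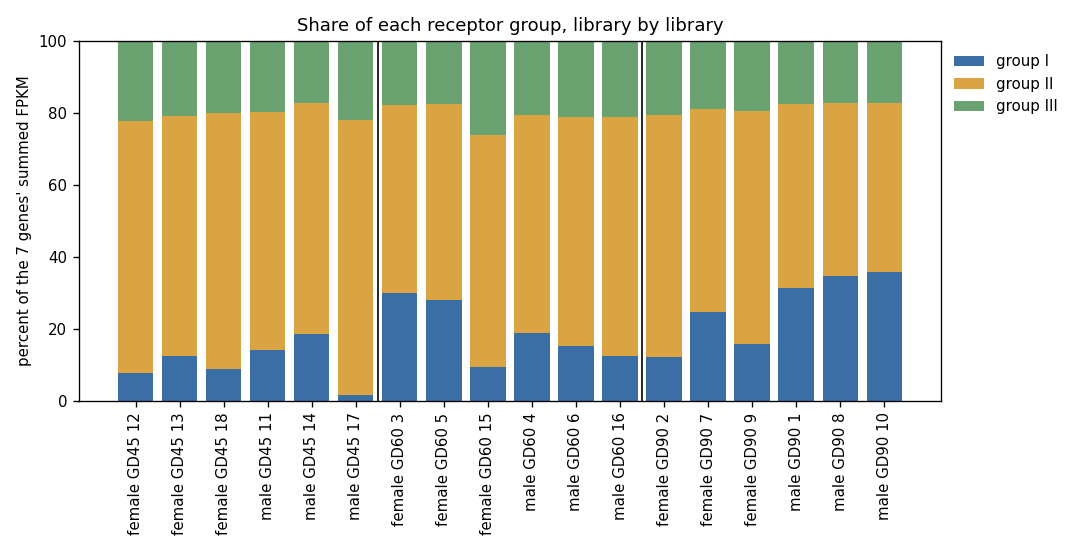
Stacked bars give the percent of the summed FPKM of the 7 genes in receptor group I (GRM5), II (GRM2 and GRM3) and III (GRM4, GRM6, GRM7 and GRM8), with 1 bar for each of the 18 libraries and lines between gestation days. Group I takes 1.64% in male GD45 replicate 17 and 35.8% in male GD90 replicate 10.

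Changes between gestation days were tested within each sex by the quasi-likelihood test of edgeR over all 16325 genes, and a gene was called at an adjusted p under 0.05 (Benjamini-Hochberg). From GD45 to GD60, 1 of the 7 genes was called higher in females and none in males (1 by DESeq2, by the likelihood ratio test and at an unadjusted p under 0.05, GRM7 each time), beside 4.34% of all tested genes called higher and 2.88% called lower in females and 3.08% and 2.53% in males. Later, between GD60 and GD90, none was called higher and 2 were called lower in females, beside 13.7% and 13.4% of all tested genes. In males 4 were called higher and 1 lower, beside 18.5% and 16% of all tested genes. Between GD45 and GD90, a comparison added after values had been seen, 3 genes were called higher and 1 lower in females, where 20% and 18.9% of all tested genes were called. In males 5 were called higher and none lower, where 23.4% and 24.3% were called.

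GRM5, the group I receptor, had the widest range of the 7 genes. The female levels of GRM5 were 20.7, 34.5 and 22.6 CPM at GD45, 143, 119 and 27.7 CPM at GD60 and 47.7, 129 and 68.9 CPM at GD90. The male levels were 43.5, 59.5 and 1.78 CPM at GD45, 72.2, 45.2 and 31.9 CPM at GD60 and 177, 215 and 229 CPM at GD90. Female GD60 and GD90 libraries overlapped widely, while the 3 male GD90 libraries lay above every other library. In males GRM5 rose from GD60 to GD90 by a log2 fold change of 2.06 (SE 0.71, adjusted p = 0.0326), a call lost without male GD60 replicate 6 or 16 or any 1 of the 3 male GD90 libraries (adjusted p from 0.0507 to 0.121). In females the same step gave -0.13 (SE 0.68, adjusted p = 0.916), and the step from GD45 to GD60 gave 1.88 (SE 0.71, adjusted p = 0.125). The early male value was 0.55 (SE 0.69, adjusted p = 0.741). Over the whole interval from GD45 to GD90, GRM5 was 6.09-fold higher in males (log2 2.61, SE 0.72, adjusted p = 0.0071), and in females the log2 value was 1.75 (SE 0.71, adjusted p = 0.0589). Without male GD45 replicate 17, whose 1.78 CPM was the lowest level, the female steps from GD45 to GD60 and from GD45 to GD90 passed the threshold (adjusted p = 0.0107 and 0.0040), and the male change to GD90 was 2.05. The female change to GD90 also passed without male GD45 replicate 14 or female GD60 replicate 15 (adjusted p = 0.0490 and 0.0408).

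The level of GRM5 moved with the last-exon share of the library. In 5 of the 6 groups, the order of the 3 libraries by GRM5 was the exact reverse of their order by that share, which was so in 5 groups for 2.79% and in 6 for 0.38% of all tested genes. Female GD60 replicate 15, with 27.7 CPM, had a share of 41.9%, against 28.8% and 32.3% in the other two. Among GD90 females, the 47.7 CPM of replicate 2 went with 40.7%, the 68.9 CPM of replicate 9 with 38.3% and the 129 CPM of replicate 7 with 31.1%. GRM5's own last exon, of 2834 bases, held a median of 75.1% of its exon counts at GD45, 71.8% at GD60 and 57.2% at GD90. With the share as a covariate, an alternative added after this was seen, the male log2 change from GD60 to GD90 was 0.23 (SE 0.27, adjusted p = 0.561) and the female one 0.51 (SE 0.23, adjusted p = 0.085). From GD45 to GD60 the female value was then 0.71 (SE 0.24, adjusted p = 0.0597), and the male one, 0.79 (SE 0.23, adjusted p = 0.0348), was called. The changes from GD45 to GD90 were 1.22 in females (SE 0.23, adjusted p = 2.2e-04) and 1.02 in males (SE 0.28, adjusted p = 0.0064). With counts of the last exon alone, the male change from GD60 to GD90 was 1.87 (SE 0.67, adjusted p = 0.0509). The part of the share in the level of GRM5 was not tested beyond these fits.

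**Figure D3:**
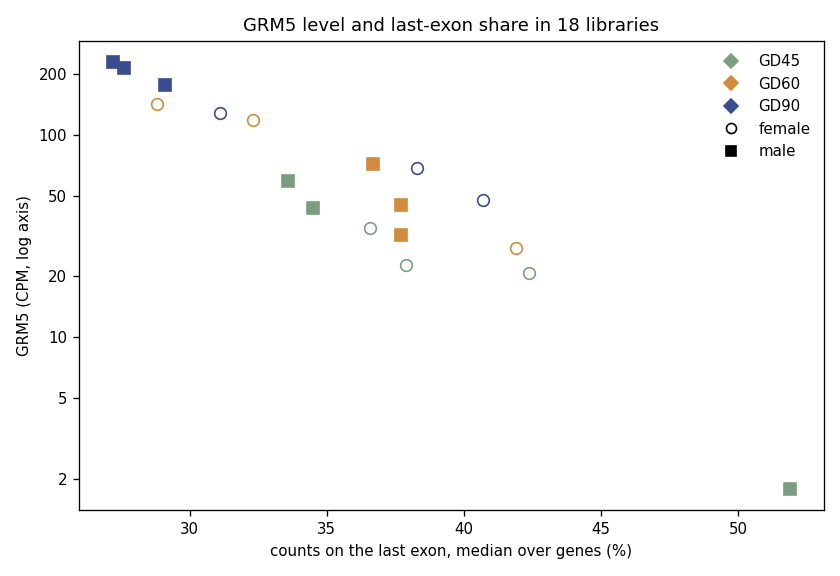
GRM5 in CPM (log axis) is plotted against the median percent of a gene's exon counts on its last exon, over 6279 genes, for the 18 libraries, coloured by gestation day, with open circles for females and filled squares for males. Libraries with a smaller share have more GRM5, from 229 CPM at 27.2% to 1.78 CPM at 51.9%, and at a like share the GD90 libraries lie above the GD45 libraries.

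GRM2, of group II, is the presynaptic autoreceptor of many excitatory terminals, and it was the gene that fell late in gestation in both sexes. In females it was at 28.8, 29.97 and 38.0 CPM at GD45, 33.4, 31.4 and 37.0 CPM at GD60 and 17.0, 19.6 and 22.1 CPM at GD90. In males it was at 27.8, 30.2 and 22.6 CPM at GD45, 34.3, 36.5 and 29.3 CPM at GD60 and 26.4, 19.1 and 19.2 CPM at GD90. Every GD90 library lay below every GD60 library. GRM2 fell from GD60 to GD90 by 0.72 on the log2 scale in females (SE 0.15, adjusted p = 0.0021) and by 0.64 in males (SE 0.15, adjusted p = 0.0039). From GD45 to GD60 the values were 0.10 and 0.29 (adjusted p = 0.761 and 0.330). Both late falls passed the threshold without any 1 of the 18 libraries, and with the last-exon share as a covariate. The model of GRM2 at chr13:33893931-33938279 shares exon bases with TEX264 on the same strand, and 10 of its 15 listed exons had no exon-level count. Only 41% of its gene counts came back in the exon table, and on exon counts the value was -0.70 in females (SE 0.27, adjusted p = 0.0862) and -0.37 in males (SE 0.27, adjusted p = 0.323), not called in either sex.

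GRM3, the other group II gene and the most abundant of the 7, rose over the period. The female levels of GRM3 were 119, 120 and 109 CPM at GD45, 164, 152 and 116 CPM at GD60 and 186, 208 and 196 CPM at GD90. The male levels were 135, 133 and 47.0 CPM at GD45, 151, 116 and 106 CPM at GD60 and 199, 212 and 213 CPM at GD90. All 6 GD90 libraries lay above all 12 earlier ones. From GD45 to GD90, GRM3 rose 1.82-fold in females (log2 0.87, SE 0.22, adjusted p = 0.0052) and 1.98-fold in males (log2 0.99, SE 0.22, adjusted p = 0.0017). The late step, GD60 to GD90, gave a log2 value of 0.73 in males (SE 0.22, adjusted p = 0.0183). This call did not hold without male GD60 replicate 6, male GD60 replicate 16 or male GD90 replicate 8 (adjusted p = 0.0675, 0.0755 and 0.0556). In females it was 0.54 (SE 0.22, adjusted p = 0.0797), and 0.55 with an adjusted p of 0.0014 without male GD45 replicate 17. With the last-exon share as a covariate the order of the sexes turned, with 0.66 in females (adjusted p = 4.7e-04) and 0.29 in males (adjusted p = 0.155). On counts of the last exon alone this step was 0.75 in females (adjusted p = 0.0018) and 0.15 in males (adjusted p = 0.486). The change from GD45 to GD90 was then 0.71 in females (adjusted p = 0.0014) and 0.37 in males (adjusted p = 0.0587). The astrocyte markers, 6 genes, rose in sum between the same days, from a range of 435 to 617 CPM at GD60 to 1627 to 2174 CPM at GD90, and their part in the level of GRM3 was not tested.

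GRM4, a group III receptor known from cerebellar granule cell terminals, also rose to GD90. In females it was at 25.6, 24.7 and 17.6 CPM at GD45, 32.9, 28.5 and 24.4 CPM at GD60 and 36.4, 39.6 and 36.4 CPM at GD90. In males it was at 28.1, 18.99 and 9.29 CPM at GD45, 26.4, 24.6 and 16.1 CPM at GD60 and 49.5, 42.9 and 44.3 CPM at GD90. All 6 GD90 libraries lay above all earlier ones. GRM4 rose 2.02-fold from GD60 to GD90 in males (log2 1.02, SE 0.24, adjusted p = 0.0046), while the female value of 0.48 (SE 0.24, adjusted p = 0.156) was not called. The female value was called with the last-exon share as a covariate (0.57, adjusted p = 0.0261) and without male GD45 replicate 17 (0.49, adjusted p = 0.0434). From GD45 to GD90 it rose in both sexes, by a log2 fold change of 0.83 in females (SE 0.24, adjusted p = 0.0126) and 1.27 in males (SE 0.25, adjusted p = 5.2e-04). The female call rested on female GD45 replicate 18, without which the adjusted p was 0.0718. The male call from GD60 to GD90 held without any 1 library and with the last-exon share as a covariate. The 5 cerebellar granule cell markers did not move one way. Their summed median was 158 CPM at GD45, 85.0 at GD60 and 56.1 at GD90, most of it from ZIC1 (a median of 115, 53.4 and 25.5 CPM), while CBLN3 was at 0.461 to 1.61 CPM at GD45 and 1.81 to 3.50 CPM at GD90. Their part in the level of GRM4 was not tested.

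GRM7, which sits in the active zone of presynaptic terminals, was the gene that rose earliest. The female levels of GRM7 were 43.3, 40.3 and 37.5 CPM at GD45, 73.7, 64.0 and 73.8 CPM at GD60 and 65.1, 85.8 and 75.3 CPM at GD90. The male levels were 43.9, 46.9 and 16.6 CPM at GD45, 72.4, 51.0 and 49.96 CPM at GD60 and 77.8, 89.0 and 95.6 CPM at GD90. All 6 GD60 libraries lay above all 6 GD45 libraries. From GD45 to GD60 GRM7 rose 1.77-fold in females (log2 0.82, SE 0.23, adjusted p = 0.0352), and the male value of 0.70 (SE 0.23, adjusted p = 0.0864) was not called. The female call was lost without any 1 of the 6 female libraries of those days and without 2 of the GD90 libraries, female replicate 9 and male replicate 8, with adjusted p from 0.0506 to 0.134. It was also lost on exon counts (log2 0.98, SE 0.38, adjusted p = 0.174). With the last-exon share as a covariate, the early step was called in both sexes, at 0.68 in females and 0.67 in males (adjusted p = 0.0157 and 0.0156). From GD45 to GD90 GRM7 rose 2.00-fold in females (log2 1.00, SE 0.23, adjusted p = 0.0021) and 2.44-fold in males (log2 1.29, SE 0.23, adjusted p = 2.4e-04). Between GD60 and GD90 neither sex was called (adjusted p = 0.598 in females and 0.0524 in males).

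GRM8, the presynaptic group III receptor with a high affinity for glutamate, was called between days in males only. The female levels of GRM8 were 15.6, 20.3 and 17.6 CPM at GD45, 17.9, 14.7 and 13.8 CPM at GD60 and 17.9, 20.1 and 14.6 CPM at GD90. The male levels were 16.4, 13.6 and 8.17 CPM at GD45, 16.1, 14.6 and 11.102 CPM at GD60 and 18.0, 23.1 and 20.6 CPM at GD90. The female days overlapped throughout, and the male GD90 libraries lay above the earlier male ones. In males GRM8 rose from GD60 to GD90 by a log2 fold change of 0.55 (SE 0.19, adjusted p = 0.0332) and from GD45 to GD90 by 0.67 (SE 0.19, adjusted p = 0.0080). The female values were 0.27 and 0.08 (adjusted p = 0.312 and 0.769). The male call from GD60 to GD90 was lost without any 1 of male GD60 replicates 6 and 16 and male GD90 replicates 8 and 10 (adjusted p from 0.0663 to 0.142). With the last-exon share as a covariate, neither male value was called, at 0.28 from GD60 and 0.35 from GD45 (adjusted p = 0.244 and 0.145).

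GRM6 was at the edge of detection. Its 18 libraries held 129 counts in all, from 1 to 14 in each, which is 0.0569 to 0.926 CPM. In females it had 12, 1 and 6 counts at GD45, 9, 13 and 7 at GD60 and 2, 2 and 1 at GD90. In males it had 9, 7 and 3 counts at GD45, 6, 8 and 11 at GD60 and 4, 14 and 14 at GD90. The 3 female GD90 libraries, each at or under 3 counts, lay below all GD60 libraries. Summed over the group, the female GD90 level was 0.18 of the GD60 level (5 counts against 29, exact 95% interval 0.0544 to 0.47 for counting error only). The fitted log2 value was -2.33 (SE 0.76, adjusted p = 0.0314), and it was not called without any 1 of female GD60 replicates 3 and 5 and the 3 female GD90 libraries (adjusted p from 0.0577 to 0.1105). The retinal markers had a summed level of 2.48 to 11.6 CPM, most of it from RCVRN, and their part in the level of GRM6 was not tested.

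In the comparison of males with females, none of the 7 genes was called at GD45, GD60 or GD90, where 0.0919%, 0.098% and 0.098% of all tested genes were called. GRM8 at GD45 (log2 -0.42, males lower, adjusted p = 0.995) and GRM6 at GD90 (log2 2.56, males higher, adjusted p = 0.350) had an unadjusted p under 0.05 in edgeR's test, and DESeq2 and the likelihood ratio test called none. GRM6 at GD90 rested on 32 counts in males and 5 in females, a ratio of 6.45 (exact 95% interval 2.49 to 21.2 for counting error only). For GRM5 at GD90, males were at 207 ± 27.1 CPM and females at 81.8 ± 42.1 CPM (SD, n = 3 each), and the sexes did not overlap. The log2 difference was 1.29 (SE 0.69, adjusted p = 0.385). A fit of only the GD90 libraries called it (adjusted p = 0.0461), and no other setting did. In each pair of the same litter size at GD90 the male had more GRM5, 177 against 47.7 CPM, 215 against 129 CPM and 229 against 68.9 CPM. At GD60 the order was the other way in 2 of the 3 pairs, with 72.2 CPM in the male against 143 in the female and 45.2 against 119, and 31.9 against 27.7 in the third. With the last-exon share as a covariate, the male minus female difference at GD90 was -0.32 (SE 0.27, adjusted p = 0.942), the reverse of the sign without it. GRM4 at GD90 did not overlap between the sexes either, at 36.4 to 39.6 CPM in females and 42.9 to 49.5 CPM in males, and was not called.

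The interaction of sex and gestation day asks whether the change between 2 days differed between the sexes. It called none of the 7 genes and 0% of all tested genes, in the early and the late period, although 333 and 3232 of the 16325 genes had an unadjusted p under 0.05. The late change of GRM5 was larger in males by 2.18 on the log2 scale (SE 0.97, adjusted p = 0.239). For GRM6 it was 2.73 (SE 0.98, adjusted p = 0.205), and both had an unadjusted p under 0.05. GRM5 passed without male GD45 replicate 17 (2.18, adjusted p = 0.0328), and with the last-exon share as a covariate its value was -0.27 (adjusted p = 0.912). The calls made in males and not in females are therefore not shown to differ between the sexes.

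At the level of exons, GRM3 and GRM5 could be followed from end to end, since 90% and 93.4% of their gene counts came back in the exon table. All 10 exons of GRM5 were higher at GD90 than at GD45, in median CPM. The ratio lay between 4.95 and 13.0 for the 9 upstream exons and was 3.81 for the last exon. In GRM3, all 7 exons were higher, by 1.66-fold to 2.79-fold in the first 5 and by 1.16-fold in the last. The alternative last exon of GRM3, with 50 counts in all, had the largest ratio of that gene, 6.77. The usual last exon had the smallest ratio in both genes. Before it, the first 5 exons of GRM3 had ratios of 2.73, 2.79, 2.11, 1.66 and 1.78 in order from the 5′ end. The GRM5 exons before the last showed no order along the gene. With the sexes pooled, the last-exon share over all genes had a median of 37.2% at GD45 and 30.1% at GD90, and the libraries of these days overlapped in it. GRM4 had 10 exons with at least 20 counts, and all 10 were higher at GD90 than at GD45. GRM7 had 13 such exons, of which 10 were higher. Only 42.4% of the gene counts of GRM4 and 39.4% of those of GRM7 came back in the exon table. Of the other genes, GRM8 (62.1% came back) had 9 of 11 such exons higher, GRM2 (41%) 1 of 5 and GRM6 (93%) 1 of 2.

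**Figure D4:**
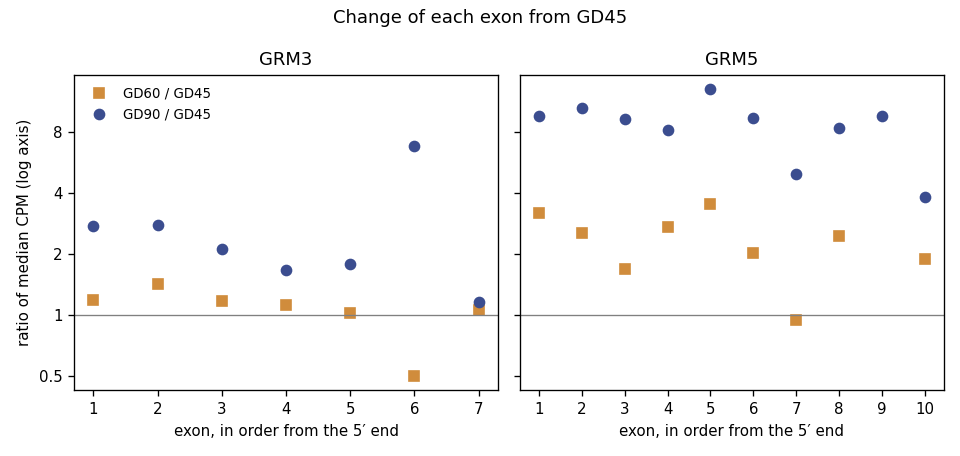
The ratio of median CPM of 6 libraries at GD60 (squares) or GD90 (circles) to that at GD45 is plotted on a log axis for each exon of GRM3 and GRM5, in order from the 5′ end, and a ratio of 0 is not drawn. The last exon has the smallest GD90 ratio in both genes, 1.16 in GRM3 and 3.81 in GRM5.

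The 96-base exon of GRM5 had few counts. Over 6 libraries it had 5 counts at GD45, 6 at GD60 and 45 at GD90, beside 330, 845 and 1946 counts on the 940-base exon before it. As a share of both exons this was 1.49% (exact 95% interval 0.486 to 3.45), 0.705% (0.259 to 1.53) and 2.26% (1.65 to 3.01). At GD90 it had a count in all 6 libraries, with 0.916% to 6.1% per library, and 22 of the 45 counts came from male GD90 replicate 1. Without the library with most of these counts at each day (female GD45 replicate 12, female GD60 replicate 3 and male GD90 replicate 1), the shares were 0.66%, 0.363% and 1.5%. The 92-base exon of GRM7 had 2, 19 and 15 counts, beside 185, 319 and 349 on the 247-base exon before it, or 1.07% (0.13 to 3.81), 5.62% (3.42 to 8.64) and 4.12% (2.32 to 6.71). It had a count in 2 of 6 libraries at GD45 and in 6 of 6 at GD60. At GD90, 8 of the 15 counts came from male GD90 replicate 10, and without it the share was 2.34%. An alternative last exon of GRM3, of 286 bases, had 5, 8 and 37 counts, or 0.201% (0.0652 to 0.468), 0.323% (0.14 to 0.636) and 1.18% (0.832 to 1.62) of its counts and those of the usual last exon. Without female GD60 replicate 3, which held 4 of the 8 counts, the GD60 share of this exon was 0.186%. Exons this short catch few whole reads, so these shares do not give the share of transcripts, and the intervals cover counting error only. The libraries differed, too, in where reads fell along transcripts. With the sexes pooled, the usual last exon of GRM3 held a median of 23% of that gene's exon counts at GD45, 22.6% at GD60 and 14.8% at GD90, and the days overlapped. The part of this in the differences between days was not tested.

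The genes around the receptors were described from lists of their signalling partners. For the Gq arm and scaffolds of group I, 16 of 17 listed genes were in the table and tested. From GD60 to GD90, 6 were called higher and none lower in females, and 11 higher and 1 lower in males, with a median log2 of 0.32 and 0.85 beside -0.02 and 0.01 over all tested genes. Of all tested genes, 13.7% were called higher and 13.4% lower in females and 18.5% and 16% in males. PLCB1, the phospholipase C that Gq activates, rose by 1.46 in females and 2.14 in males (adjusted p = 7.4e-04 and 2.9e-05). HOMER1, the scaffold that binds GRM5, rose by 0.61 and 1.16 (adjusted p = 0.0298 and 4.1e-04). With the last-exon share as a covariate, 8 genes were called higher and 1 lower in each sex.

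Of the Gi/o arm shared by groups II and III, all 17 listed genes were tested. Late in gestation (GD60 to GD90), 7 were called higher and 2 lower in females, and 12 higher and 2 lower in males, with a median log2 of 0.30 and 0.54. Over all tested genes, 13.7% and 13.4% were called in females and 18.5% and 16% in males, and the medians were -0.02 and 0.01. RGS4, which speeds the shut-off of Gi/o and Gq signals, rose by 2.07 in females and 2.13 in males (adjusted p = 3.3e-05 and 2.5e-05). KCNJ9, a subunit of the potassium channels that Gi/o opens, rose by 1.75 and 1.59 (adjusted p = 3.3e-07 and 9.2e-07). ADCY6, an adenylate cyclase, fell by 0.61 and by 0.55 (adjusted p = 0.0139 and 0.0204), and GNAI3, a Gi subunit, fell by 0.34 and by 0.30 (adjusted p = 0.0221 and 0.0353). With the covariate, 10 genes were called higher and 2 lower in each sex.

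Of 5 listed binding partners of group III receptors, 4 were tested. From GD60 to GD90, 1 was called higher and 1 lower in females, which were ELFN1 and GRIP1, and 1 was called higher in males, ELFN2. Of all tested genes, 13.7% were called higher and 13.4% lower in females and 18.5% and 16% in males. The median log2 of the 4 genes was 0.17 and 0.03, beside -0.02 and 0.01 over all tested genes. ELFN1, the postsynaptic protein that binds GRM7 across the synapse, had a log2 change from GD45 to GD90 of 0.59 in females and 0.66 in males (adjusted p = 0.0014 and 4.9e-04). Of 10 partners of GRM6 in ON bipolar cells, 8 had enough counts to be tested. Their median log2 between GD60 and GD90 was 0.67 in females and 0.60 in males. Beside the shares of all tested genes given above, 2 were called higher and 1 lower in females and 4 higher and 1 lower in males. Those that rose in both sexes were RGS7 (0.98 and 0.92) and GNB5 (0.61 and 0.59), both of which are used widely in the brain, and GNB3, the G protein subunit of cones and ON bipolar cells, fell by 1.13 and by 0.77. No gene of the 4 lists was called between the sexes or for the interaction.

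The genes most like each receptor were found by Pearson's r of log2 CPM over the 18 libraries, among 12808 genes with a symbol and at least 1 CPM. They share the libraries, and with them the gestation days and the last-exon share, so r is a description. GRM5 was most like SHISA9 (r = 0.985) and PCDH9 (0.982), and GRM3 was close to APP (0.983). For GRM4 they were SLC4A4 (0.966) and NCAM2 (0.965), and for GRM7 CLMP (0.975) and LIMCH1 (0.974). GRM2 and GRM8 had less close companions, ZNF384 (0.934) and ZCCHC8 (0.895) for GRM2, and CCDC85A (0.879) and RHOJ (0.878) for GRM8.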

How the data were processed

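Whole-brain RNA of 18 pig fetuses was enriched with oligo(dT) and sequenced in pairs of reads. The authors trimmed the reads (FastQC, Trimmomatic), aligned them to Sscrofa11.1 with HISAT2, used featureCounts with Ensembl gene models, and deposited raw counts per gene, exon and transcript. The options for strand and for shared reads are not given in the sources used here. The 22 count columns gave 18 libraries, since 4 had 2 runs, which were summed.

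Genes kept by filterByExpr (16325 of 31908) were fitted with edgeR 4.0.16 in R 4.3.3, with TMM factors and 1 model of 6 groups, and tested by quasi-likelihood with Benjamini-Hochberg adjustment at 0.05. CPM used plain library totals, FPKM the exonic length of the deposited table, and log2 CPM a prior count of 2. Tested on simulated counts for GD90 against GD60 in males (16045 genes), the fit recovered 97% of 200 genes changed by a log2 of 2, with 12 false calls. The changed genes were above 1 CPM, and the simulated spread followed the trend over all genes. Recovery of smaller changes, or of genes with a wider spread, was not tested. Replicates were separate fetuses.

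All 7 receptor genes were named. For each at 1 CPM or more, the 2 genes of highest Pearson r were named (1 is not reported here), and from each list of partners the 2 with the largest rise and fall (mean of the sexes) among those called in both sexes from GD60 to GD90. ELFN1, ELFN2 and GRIP1 were named after their values were seen. The members, lists and tests were chosen with earlier results of these data known. The alternatives were the likelihood ratio test, DESeq2 1.42.0, other filters, no TMM, only the libraries compared, removal of a trend with gene length (lowess), exon counts, each library left out, and the litter as a block. A median share of counts on the 3′-most exon per library, used as a covariate or as the only counts, was added after the data were seen.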

Additional observations from a re-analysis of the deposited data

Results flagged for a closer look

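Of 21 groups of 6 libraries (each gene at each gestation day), 2 held a library farther from the rest than Dixon's 95% limit for 6 values, which chance does in about 1 of 20. Both were the same library. GRM3 in male GD45 replicate 17 was at 47.0 CPM, against 109 CPM in the next lowest library of GD45 (gap over range 0.702). GRM7 in the same library was at 16.6 CPM, against 37.5 CPM in the next (0.692). This library also had the lowest level of GRM2, GRM4, GRM5 and GRM8 at GD45, the smallest TMM factor (0.849) and the largest last-exon share (51.9%). Its erythroid markers (3 genes) summed to 661 CPM, against 262 to 371 CPM in the other GD45 libraries. The brain weight labels of this fetus and of the female of the same litter size were the lowest at GD45. Their part in its levels was not tested.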

How the results depend on the processing

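Leaving out each library in turn gave 0 to 2 receptor genes called from GD45 to GD60 in females (1 with all libraries) and 0 to 1 in males (0). From GD60 to GD90 it gave 1 to 4 in females (2) and 2 to 6 in males (5), and for the interaction from GD60 to GD90 0 to 1 (0). Female counts were highest without male GD45 replicate 17, and the libraries behind lost calls are named with each gene.

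From GD45 to GD60 in females, no gene was called (0) without TMM factors, on exon counts or on last-exon counts. In males 1 was called (GRM7) by the likelihood ratio test, DESeq2 and the fit without the gene length trend, and 2 with the last-exon covariate. From GD60 to GD90 in females, the filter at 1 CPM left 1, exon counts 0 and last-exon counts 1, while the fit without the length trend and the covariate gave 4 each. In males exon counts gave 3, the covariate 2 and last-exon counts 1. From GD45 to GD90, last-exon counts gave 1 in females (4) and 2 in males (5), and a fit of only the male libraries compared gave 3. Between the sexes at GD90 a fit of only those libraries called 1, GRM5. GRM2 and GRM7 could not be fitted on last-exon counts, and GRM6 not on every setting.

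These log2 values changed sign. Without male GD45 replicate 17 the male values from GD45 to GD60 were -0.058 for GRM3 (highest without another library 0.445), -0.031 for GRM4 (0.611), -0.0072 for GRM5 (1.15) and -0.055 for GRM8 (0.30). GRM2 in females was -0.014 without female GD60 replicate 15 (highest 0.205), and GRM3 -0.041 on last-exon counts. GRM5 in females from GD60 to GD90 was 0.26, 0.04 and 0.14 without female GD60 replicates 3 and 5 and female GD90 replicate 2, (lowest without another -0.611), and 0.51 with the covariate. GRM8 was -0.15 from GD60 to GD90 in males on last-exon counts. From GD45 to GD90 in females GRM8 was -0.025 without TMM factors, -0.0043 on last-exon counts, -0.0016 without female GD45 replicate 12 and -0.025 without female GD90 replicate 7 (highest 0.20). GRM2 in males was 0.10 on exon counts. The covariate turned GRM5 between the sexes at GD90 to -0.32 and its interaction to -0.27. The causes were not tested.

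The male and female fetus of the same day and litter size were taken as a pair in a fit with the litter as a replicate block. The correlation of their deviations from the group means was -0.0932 to 0.424 over 9 pairs, and not above 0.1 in every pair. The labels do not name the litters, so whether a pair shared a litter cannot be told. With the block, 0 receptor genes were called in each comparison of the sexes and each interaction, as without it, and GRM5 at GD90 was 1.40 (adjusted p = 0.337). Without TMM factors the median of all genes moved by -0.104 from GD45 to GD90 in females and by 0.103 in the interaction to GD90. Depth limits GRM6, which had 1 to 14 counts a library, and the alternative exons.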
